A study of Mus musculus with 6 samples.

Results

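The genes described here are the Fc-gamma receptors and complement receptors of macrophages, with their shared signalling chain and 2 complement proteins. They were chosen by symbol in the GENCODE M21 annotation (GRCm38) and number 10 of the 54532 genes in each deposited table: Fcgr1, Fcgr3, Fcgr4, Fcer1g, Fcgr2b, C3ar1, C5ar1, Itgam, C3 and Cfb. A total of 7 of the 10 reached the mean of 1 FPKM (fragments scaled to exon length and library depth) over all libraries that was needed for testing, and Fcgr2b, Fcgr3 and Cfb did not.

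The libraries came from iBMDMs, immortalized bone marrow-derived macrophages of the mouse, in which the mitochondrial phosphatase PGAM5 was knocked down to ask how it takes part in inflammatory responses. Control iBMDMs carried a control shRNA (shControl) and PGAM5 KD iBMDMs carried an shRNA against PGAM5 (shPGAM5), with 3 libraries each, and both groups were treated with LPS, a bacterial ligand of TLR4, at 100 ng/ml for 4 hours. No library of untreated cells was analysed, so the effect of LPS itself cannot be read here, and PGAM5 is represented by 1 hairpin label in 1 cell line. The labels do not say how the 3 replicates of a group were separated, so p-values measure the spread between these libraries, which may be technical.

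Fc-gamma receptors bind the constant part of IgG and let a macrophage ingest antibody-coated particles. Fcgr1, Fcgr3 and Fcgr4 encode activating receptors, which have no signalling motif of their own and rely on the common gamma chain encoded by Fcer1g, whose ITAM is phosphorylated by Src-family kinases and then recruits Syk. Fcgr2b encodes the inhibitory receptor, which carries an ITIM in its own tail and recruits the inositol phosphatase SHIP1, and the balance of activating and inhibitory receptors is known to set the threshold of the response to immune complexes. In the complement system C3 is cleaved into a small peptide sensed by the G protein-coupled receptor C3ar1 and a large fragment deposited on targets, C5ar1 senses the corresponding peptide of C5, Itgam encodes the alpha chain (CD11b) of complement receptor 3, and Cfb encodes factor B, the protease of the alternative pathway.

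The depth recovered from the tables was 18165599 to 20178812 fragments in control libraries and 18163464 to 24388917 in PGAM5 KD libraries, so that 1 fragment on a transcript of 1 kb was worth 0.0410 to 0.0551 FPKM. The targeted gene, Pgam5, was 14.5 ± 2.27 FPKM with shControl and 4.87 ± 0.770 FPKM with shPGAM5 (SD, n = 3), a log2 fold change of -1.40 (SE 0.13, limma adjusted p = 0.000358), although 58.1% of its exon bases lie opposite to the noncoding gene Gm26718. Macrophage markers were present, 8 of 10 reaching 1 FPKM in some library, while Mertk was listed at 0 in every library. Of the 7 macrophage markers tested 3 rose (Adgre1, Cd14 and Msr1) and 3 fell (Csf1r, Cd68 and Lyz2) in PGAM5 KD iBMDMs. Of all genes tested 16.8% rose and 14.9% fell. The summed level of the 10 markers was 2982 to 3066 FPKM in control and 2697 to 2722 FPKM in PGAM5 KD libraries. Lyz2 alone held 1665.5 FPKM of that sum on average in control and 1265.4 FPKM in PGAM5 KD libraries. None of the markers of neutrophils, B cells, NK and T cells, mast cells and basophils or fibroblasts reached 1 FPKM in any library, the highest being a neutrophil marker at 0.328 FPKM.

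Of the 7 genes tested, Fcgr1, Fcgr4, Itgam and C3ar1 rose in PGAM5 KD iBMDMs and none fell, while Fcer1g, C5ar1 and C3 did not pass the test (limma on log2(FPKM + 1), adjusted p under 0.05 over all 10540 genes tested). Over all genes tested 16.8% were called higher and 14.9% lower, and 4 of 7 stands beside those shares. All PGAM5 KD libraries lay above all control libraries for the same 4 of the 7 and below them for 0 of the 7, against 24.2% and 22.9% of all genes tested. The median log2 fold change of the 7 was 0.29, against 0.01 over all genes tested. Fcgr1 and Fcgr4 also passed the fold threshold of the study, an absolute log2 fold change above 1, which 1.32% of all genes tested passed together with the adjusted p. In each of these bulk measurements, more cells carrying a transcript and more transcript per cell cannot be told apart. With 3 libraries against 3 the exact two-sided permutation test cannot go below p = 0.1, which each of the 4 genes reached.

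**Figure D1:**
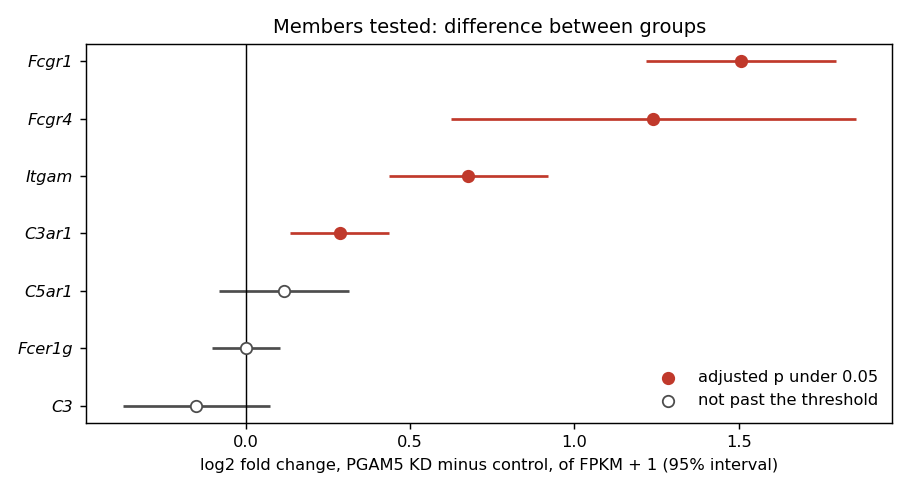
The plot gives the log2 fold change of FPKM + 1 (PGAM5 KD minus control) on the horizontal axis for the 7 genes tested, with bars for the 95% interval from limma and filled points for an adjusted p under 0.05. The points of Fcgr1 (1.51) and Fcgr4 (1.24) lie beyond 1, those of Itgam (0.68) and C3ar1 (0.29) between 0 and 1, and the intervals of C5ar1, Fcer1g and C3 include 0.

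The sequence just before the start is given for the 4 genes that rose, because genes of this kind are known to respond to interferons and PU.1 is the lineage factor of macrophages. The sequences come from RefSeq (GRCm38.p6), read 5′ to 3′ on the strand of the gene, and bases inside the GENCODE M21 gene were left out. Capitals mark matches, on either strand, to the gamma-activated site TTCNNNGAA, to the interferon response element GAAANNGAAA or to the PU.1 core GAGGAA. The Fcgr1 sequence lies on the minus strand at chr3:96293970-96294219, Fcgr4 on the plus strand at chr1:171018676-171018919, Itgam on the plus strand at chr7:128062390-128062639 and C3ar1 on the minus strand at chr6:122856162-122856407.
Fcgr1: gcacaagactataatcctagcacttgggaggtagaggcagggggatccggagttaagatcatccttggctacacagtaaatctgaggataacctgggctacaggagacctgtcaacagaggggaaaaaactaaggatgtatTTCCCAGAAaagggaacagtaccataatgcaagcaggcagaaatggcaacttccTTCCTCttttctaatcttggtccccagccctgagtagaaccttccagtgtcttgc
Fcgr4: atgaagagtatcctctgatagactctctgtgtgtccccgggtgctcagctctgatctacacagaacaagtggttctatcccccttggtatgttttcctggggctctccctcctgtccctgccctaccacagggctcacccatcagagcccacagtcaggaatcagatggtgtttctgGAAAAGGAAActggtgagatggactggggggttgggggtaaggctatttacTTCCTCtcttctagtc
Itgam: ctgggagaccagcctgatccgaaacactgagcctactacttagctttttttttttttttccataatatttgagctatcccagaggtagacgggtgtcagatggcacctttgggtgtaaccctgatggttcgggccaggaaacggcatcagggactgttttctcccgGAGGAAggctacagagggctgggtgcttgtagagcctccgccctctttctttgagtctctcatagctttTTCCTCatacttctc
C3ar1: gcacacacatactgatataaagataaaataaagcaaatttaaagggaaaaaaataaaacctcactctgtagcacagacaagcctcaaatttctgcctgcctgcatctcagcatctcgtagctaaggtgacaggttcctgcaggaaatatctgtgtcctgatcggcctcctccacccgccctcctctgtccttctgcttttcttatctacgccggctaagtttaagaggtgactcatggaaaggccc

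In Fcgr1 the gamma-activated site letters lay 109 to 101 bases before the RefSeq start, and PU.1 letters lay 55 to 50 bases before it. In Fcgr4 the interferon response element letters lay 73 to 64 bases before the start and PU.1 letters 22 to 17 bases before it. Itgam held PU.1 letters 84 to 79 and 15 to 10 bases before its start, and C3ar1 held none of the 3 motifs. RefSeq windows of 250 bases were found for 9 of the 10 genes, and among them 1 held the gamma-activated site, 1 the interferon response element and 4 the PU.1 core, the fourth being Fcgr3. Of all 27025 genes with such windows, 8.13% held the gamma-activated site, 3.46% the interferon response element and 25.9% the PU.1 core (7.02%, 2.98% and 23.3% of the 32851 windows), and the matches in these genes did not overlap each other. A match of letters is a description and not a bound site, and no binding was measured. The windows of Fcgr2b, Fcer1g, C5ar1 and C3 held none of the 3. Those of Fcgr2b and Fcgr3 lie inside the longer GENCODE genes, as do 202 of the 250 bases of the C5ar1 window.

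Fcgr1 (ENSMUSG00000015947, chr3:96282909-96293969, minus strand) encodes the high-affinity receptor for IgG and was the activating receptor with the highest FPKM in every library. Its values were 3.95, 3.75 and 5.30 FPKM in control replicates 1, 2 and 3 and 12.7, 15.7 and 14.0 FPKM in PGAM5 KD replicates 1, 2 and 3. The groups did not overlap, and the lowest PGAM5 KD library was above the highest control library by more than the range of either group. The mean rose from 4.34 ± 0.843 to 14.1 ± 1.49 FPKM (SD, n = 3), a ratio of 3.25, and the log2 fold change was 1.51 (SE 0.12, 95% interval 1.22 to 1.80, limma adjusted p = 0.000221). Each library counted 186 to 884 fragments on the gene.

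Fcgr4 (ENSMUSG00000059089, chr1:171018920-171029761, plus strand) encodes a receptor for IgG2a and IgG2b of the mouse. It stood at 1.93, 1.54 and 1.10 FPKM in the control replicates and at 5.87, 2.89 and 6.69 FPKM in the PGAM5 KD replicates. All 3 PGAM5 KD libraries were above the control libraries, but replicate 2 was below the other two, and relative to its mean the gene had the widest spread of the 4 that rose. The mean went from 1.52 ± 0.414 to 5.15 ± 2.00 FPKM (SD, n = 3), a ratio of 3.38, with a log2 fold change of 1.24 (SE 0.26, 95% interval 0.62 to 1.86, limma adjusted p = 0.0122). It rested on 27 to 205 fragments per library. Leaving out any 1 library moved the log2 fold change between 1.05 and 1.54 without ending the call.

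Fcgr3 (ENSMUSG00000059498, chr1:171051174-171064935, minus strand) encodes the low-affinity activating receptor, and its level was low in both groups. It was 0.349, 0.285 and 0.974 FPKM in control and 0.577, 0.507 and 0.590 FPKM in PGAM5 KD libraries, from 10 to 33 fragments. The PGAM5 KD values lay inside the control range, and control replicate 3 alone was above them. Without the filter on low values its log2 fold change was 0.05 (SE 0.17, limma adjusted p = 0.884). With so few fragments low depth and no change cannot be told apart.

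Fcer1g (ENSMUSG00000058715, chr1:171229572-171234365, minus strand), the shared ITAM chain, was the most abundant of the 10 genes per length. It measured 156, 169 and 164 FPKM in control and 171, 159 and 161 FPKM in PGAM5 KD libraries, and the groups overlapped. The log2 fold change was 0.00 (SE 0.04, 95% interval -0.10 to 0.10, limma adjusted p = 0.984), and its sign turned to -0.08 with scaling to TPM and to -0.09 with quantile normalization, neither of which gave a call. Its upper bound lay below the lower bounds of the intervals of Fcgr1 and Fcgr4. Per unit of summed Fcgr1, Fcgr3 and Fcgr4 FPKM there were 25.0, 30.4 and 22.3 FPKM of Fcer1g in control replicates and 8.93, 8.33 and 7.56 in PGAM5 KD replicates. The excess of chain over receptor mRNA was thus lower in every PGAM5 KD library, at 8.27 ± 0.686 against 25.9 ± 4.11 (SD, n = 3).

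Fcgr2b (ENSMUSG00000026656, chr1:170958617-170976547, minus strand), the inhibitory receptor, was 0.409, 0.659 and 0.478 FPKM in control and 1.28, 1.04 and 1.35 FPKM in PGAM5 KD libraries. The 2 groups did not overlap, on 43 to 77 fragments in control and 109 to 191 in PGAM5 KD. The mean was 0.515 ± 0.129 in control and 1.22 ± 0.166 FPKM with the knockdown (SD, n = 3), a ratio of 2.37 (exact permutation test, two-sided, p = 0.1). Its mean of 0.869 FPKM over all libraries kept it out of the test. With no filter on low values its log2 fold change was 0.55 (SE 0.11), on a scale where the added 1 FPKM shrinks changes of low genes, and it was called with a limma adjusted p of 0.0262. Fcgr2b and Fcgr3 share 509 aligned bases at 96.5% identity, and 1.28% of the 100-base windows of the longest Fcgr2b transcript also occur in Fcgr3, so a small share of their fragments may have been exchanged or dropped in counting. Summed over both genes the counts were 54, 87 and 87 fragments in control and 185, 125 and 216 in PGAM5 KD libraries, a log2 difference of 1.06 after scaling to depth (exact permutation test, two-sided, p = 0.1).

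**Figure D2:**
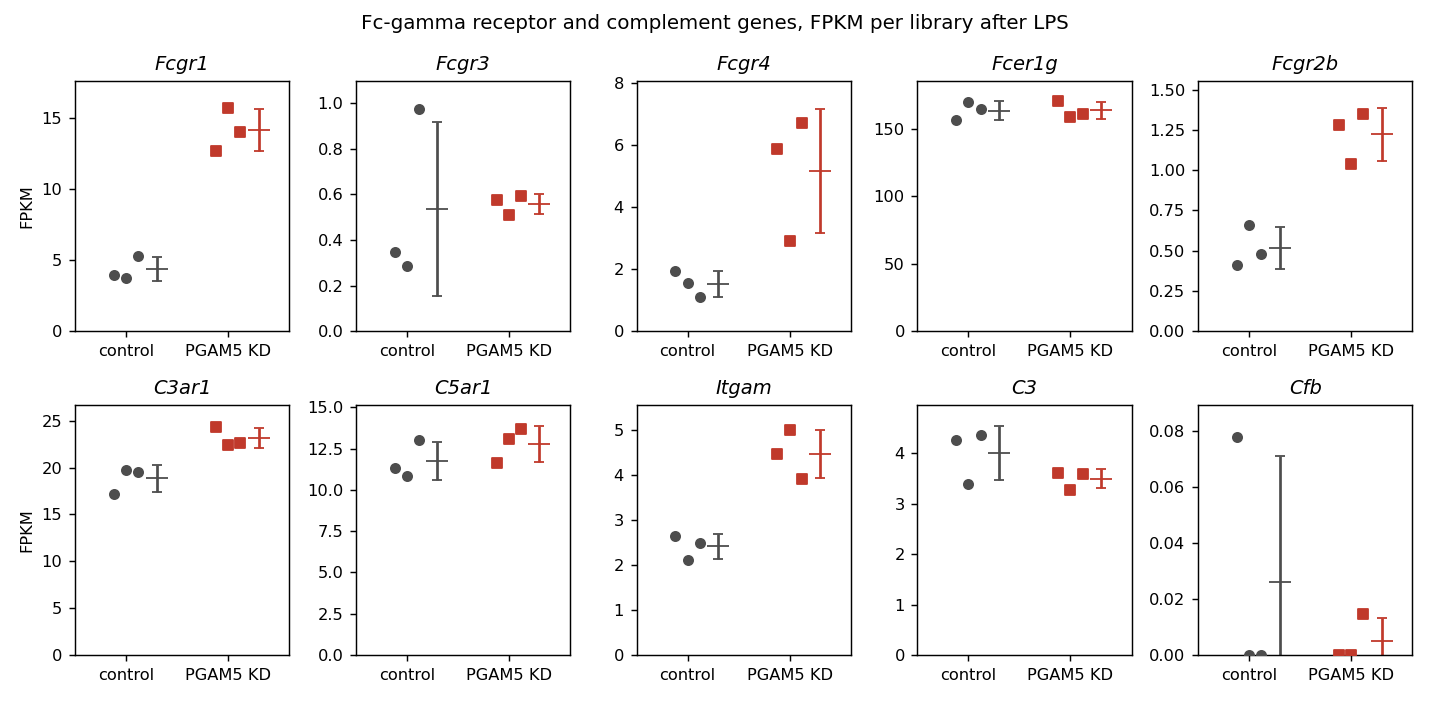
Each panel plots 1 gene in FPKM on a linear axis from 0, with circles for the control and squares for the PGAM5 KD libraries and bars for mean ± SD (n = 3). The groups separate for Fcgr1, Fcgr4, Fcgr2b, C3ar1 and Itgam and overlap for Fcgr3, Fcer1g, C5ar1, C3 and Cfb, and Fcgr4 has 1 PGAM5 KD library at 2.89 FPKM against 5.87 and 6.69.

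The comparison of activating with inhibitory receptors was made as a ratio within each library, which does not depend on scaling between libraries. Summed FPKM of Fcgr1, Fcgr3 and Fcgr4 came to 6.23, 5.58 and 7.38 in control and 19.1, 19.1 and 21.3 in PGAM5 KD libraries. Divided by Fcgr2b this gave 15.2, 8.46 and 15.4 in control and 14.9, 18.4 and 15.7 in PGAM5 KD libraries. The groups overlapped, and the means were 13.0 ± 3.97 and 16.3 ± 1.81 (SD, n = 3), a log2 difference of 0.37. Control replicate 2 had the highest Fcgr2b value of its group, and without it the log2 difference was 0.09. Receptor mRNA on both sides was higher in each PGAM5 KD library than in any control library. The ratio overlapped between the groups, its log2 difference was about as large as its SD within groups (0.37), and it was not tested. Its level depends on the exon lengths used. In recovered fragments the ratio was 4.95 ± 1.55 in control and 6.30 ± 1.06 in PGAM5 KD libraries (SD, n = 3), also with overlap.

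Taken singly, Fcgr1 over Fcgr2b was 5.69 to 11.1 in control and 9.89 to 15.1 in PGAM5 KD libraries, and Fcgr4 over Fcgr2b was 2.30 to 4.72 and 2.79 to 4.95. The ratio of Fcgr3 to Fcgr2b was 0.853, 0.433 and 2.04 in control and 0.450, 0.490 and 0.437 in PGAM5 KD libraries, a log2 difference of -0.99. Control replicate 2 lay below all 3 PGAM5 KD libraries, and the log2 difference was -0.41 without control replicate 3, which had 33 Fcgr3 fragments, and -1.52 without control replicate 2, alternatives chosen after seeing the data. Of the FPKM summed over these 4 receptors, Fcgr1 made up 62.4 ± 4.42% in control and 67.3 ± 9.20% in PGAM5 KD libraries, and Fcgr4 made up 22.6 ± 7.73% and 24.2 ± 8.53%. Fcgr2b made up 7.60 ± 2.57% and 5.81 ± 0.579%, and Fcgr3 made up 7.41 ± 4.33% and 2.65 ± 0.155%. Fcgr1 was the leading receptor mRNA in both groups.

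**Figure D3:**
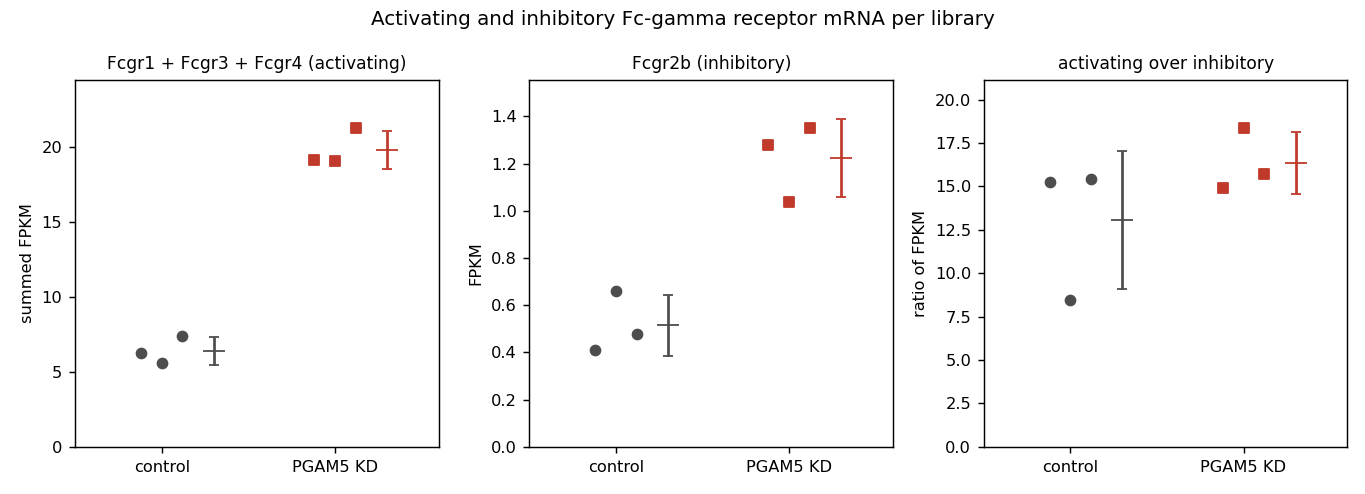
The panels show, for each library, the summed FPKM of the activating receptors, the FPKM of Fcgr2b and the ratio of the first to the second, all on linear axes from 0 with mean ± SD (n = 3). Both sums separate the groups, and the ratio overlaps, with control replicate 2 at 8.46 below the other 5 libraries at 14.9 to 18.4.

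C3ar1 (ENSMUSG00000040552, chr6:122847138-122856161, minus strand), the receptor for the small C3 peptide, had 17.2, 19.8 and 19.5 FPKM in control and 24.4, 22.4 and 22.6 FPKM in PGAM5 KD libraries. The groups were close but did not overlap. Its mean rose from 18.8 ± 1.43 to 23.2 ± 1.05 FPKM (SD, n = 3), a ratio of 1.23, with a log2 fold change of 0.29 (SE 0.06, 95% interval 0.14 to 0.44, limma adjusted p = 0.0150). C5ar1 (ENSMUSG00000049130, chr7:16246743-16259540, minus strand), the receptor for the corresponding peptide of C5, had 11.3, 10.9 and 13.0 FPKM in control and 11.6, 13.1 and 13.7 FPKM in PGAM5 KD libraries. Its groups overlapped, with a log2 fold change of 0.12 (SE 0.08, 95% interval -0.08 to 0.31, limma adjusted p = 0.334). Both encode receptors for peptides released during complement activation, and C3ar1 was above C5ar1 in every library. The ratio of C3ar1 to C5ar1 was 1.61 ± 0.179 in control and 1.82 ± 0.242 in PGAM5 KD libraries (SD, n = 3), with overlap between the groups.

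Itgam (ENSMUSG00000030786, chr7:128062640-128118491, plus strand) encodes CD11b, a surface marker of myeloid cells that binds targets coated with a C3 fragment once paired with the beta-2 integrin chain. It was 2.64, 2.11 and 2.48 FPKM in control and 4.46, 5.00 and 3.92 FPKM in PGAM5 KD libraries, with no overlap. The mean rose from 2.41 ± 0.271 to 4.46 ± 0.540 FPKM (SD, n = 3), a ratio of 1.85, and the log2 fold change was 0.68 (SE 0.10, 95% interval 0.44 to 0.92, limma adjusted p = 0.00322). Of its exon bases 68.7% are also exons of the same-strand gene Gm49368, to which 1 fragment was assigned over all 6 libraries, so fragments from the shared exons may have been lost from Itgam in both groups. The absolute level of Itgam is uncertain for that reason.

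C3 (ENSMUSG00000024164, chr17:57203970-57228136, minus strand), the central complement protein, was 4.26, 3.40 and 4.36 FPKM in control and 3.62, 3.28 and 3.60 FPKM in PGAM5 KD libraries. The groups overlapped and the log2 fold change was -0.15 (SE 0.09, 95% interval -0.37 to 0.07, limma adjusted p = 0.268). Cfb (ENSMUSG00000090231, chr17:34856374-34862518, minus strand) had 4 fragments in control replicate 1, 1 fragment in PGAM5 KD replicate 3 and 0 in the other libraries. Since 79.5% of its exon bases are shared with the same-strand gene Gm20547, itself listed at 0 in each library, fragments from Cfb could have been dropped in counting, and no fold is given.

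FPKM is scaled by exon length, so levels were ordered between genes, leaving out Itgam and Cfb, whose absolute levels are uncertain. The length used joins all annotated exons of a gene, 5790 bases for Fcgr2b and 1736 for Fcgr3. Their longest transcripts have 3544 and 1347 bases. The order of these 2 genes in control libraries and the receptor shares given above therefore depend on the length used. In control libraries the order of mean FPKM was Fcer1g, C3ar1, C5ar1, Fcgr1, C3, Fcgr4, Fcgr3 and Fcgr2b, and the ranges of the neighbours Fcgr1 and C3 and of Fcgr3 and Fcgr2b overlapped. In PGAM5 KD libraries it was Fcer1g, C3ar1, Fcgr1, C5ar1, Fcgr4, C3, Fcgr2b and Fcgr3, where the ranges of Fcgr1 and C5ar1 and those of Fcgr4 and C3 overlapped. Compared within each library, Fcgr1 lay below C5ar1 in the 3 control libraries and above it in the 3 PGAM5 KD libraries.

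Fcgr2b, Fcgr4, Fcgr3 and Fcer1g lie within 276 kb on chromosome 1, and the genes around them were compared with them. Within that span and 100 kb on each side 35 genes are annotated, and 14 were tested, Fcgr4 and Fcer1g among them. Of the other 12 genes, 2 rose and 0 fell, a share close to the 16.8% of all genes tested that were called higher. The larger change of the 2 was that of Ufc1, with a log2 fold change of 0.22 (SE 0.04, limma adjusted p = 0.00958), named after its values were seen. Fcer1g in the same interval did not pass the test. Fcgr1 is on another chromosome.

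**Figure D4:**
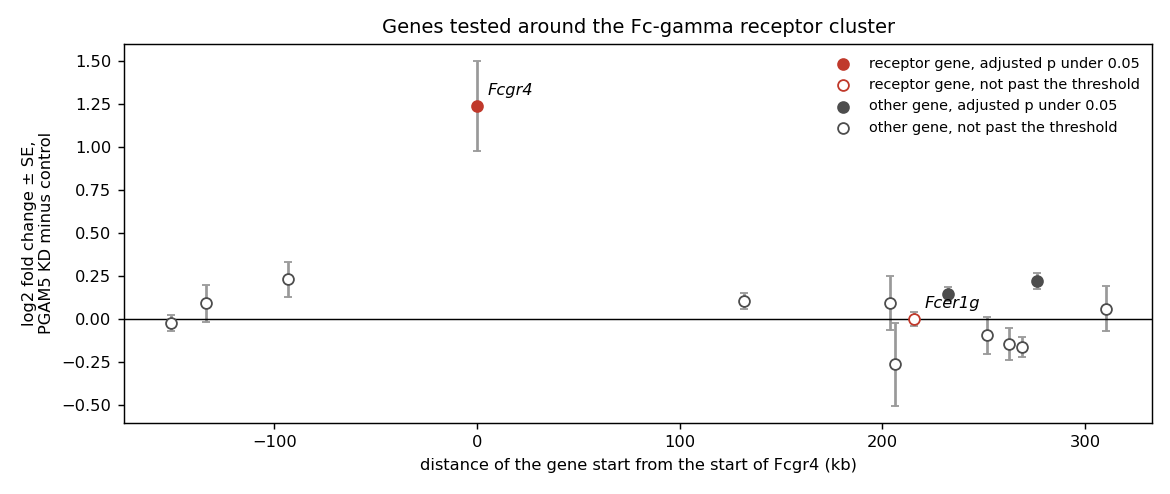
The plot gives the log2 fold change ± SE (PGAM5 KD minus control) of the 14 genes tested around the receptor cluster against the distance of the gene start from the start of Fcgr4 in kb. Fcgr4 stands at 1.24, and every other gene, Fcer1g included, lies between -0.26 and 0.23.

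Of 13 further Fc receptor genes listed, 2 reached the mean needed for testing. Fcgrt stayed below it, at 0.566 to 0.731 FPKM in control and 0.585 to 1.13 FPKM in PGAM5 KD libraries, on 24 to 43 fragments. Trim21, a cytosolic receptor for antibody on invading particles, rose from 4.36 ± 0.215 to 6.51 ± 0.692 FPKM (SD, n = 3), with a log2 fold change of 0.48 (SE 0.08, limma adjusted p = 0.00508). Fcrl1 was 13.9 ± 2.13 and 12.4 ± 0.624 FPKM and did not pass the test.

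Of the 30 genes of ITAM signalling downstream of Fcer1g, 29 were tested, 7 rose and 12 fell, with a median log2 fold change of -0.11. Of all genes tested 16.8% rose and 14.9% fell, with a median of 0.01. With scaling to TPM 4 in place of 7 were called higher. The Src-family kinases Src and Fgr fell, with log2 fold changes of -0.68 (SE 0.13) and -0.54 (SE 0.05). The transcription factor Nfatc1 fell from 60.8 ± 1.54 to 28.3 ± 0.850 FPKM (log2 fold change -1.08, SE 0.04, limma adjusted p = 1.3e-05). Syk, named after its values were seen because it binds the Fcer1g ITAM, was 22.8 ± 0.910 in control and 20.3 ± 0.227 FPKM in PGAM5 KD libraries, a log2 fold change of -0.16 (SE 0.04, limma adjusted p = 0.0302). Genes of the activating cascade were thus called in both directions while Fcgr1 and Fcgr4 rose.

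On the inhibitory side a list of 25 genes was compiled, which holds ITIM receptors and phosphatases but also the adaptors Dok1, Dok2, Dok3 and Pag1, the kinase Csk and Siglec1, a sialic acid receptor of macrophages whose short tail has no ITIM. Of the 20 tested, 7 rose and 6 fell (median log2 fold change -0.04), against 16.8% and 14.9% of all genes tested. Siglec1, Dok2 and Csk are among the 7, and Dok1 is among the 6. Siglec1, whose control mean lay below 1 FPKM so that it entered the test through its PGAM5 KD libraries, rose from 0.848 ± 0.156 to 4.08 ± 0.0584 FPKM (log2 fold change 1.46, SE 0.09), and the inhibitory receptor gene Milr1 rose from 15.7 ± 1.66 to 26.8 ± 2.00 FPKM (log2 fold change 0.74, SE 0.09). The inhibitory receptors Lilrb4a and Clec4a2 fell, with log2 fold changes of -0.92 (SE 0.06) and -0.89 (SE 0.10), although 35.3% of the exon bases of Lilrb4a are shared with the same-strand gene Gm49339. Inpp5d, which encodes the SHIP1 recruited by the Fcgr2b ITIM and was named after its values were seen, did not pass the test (log2 fold change -0.04, SE 0.04, limma adjusted p = 0.492).

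The machinery of Fc receptor-driven phagocytosis gave 8 genes that rose and 4 that fell of 27 tested (30 listed, median log2 fold change 0.09). Of all genes tested 16.8% rose and 14.9% fell, so the share that fell was close to that of all genes. With scaling to TPM or with quantile normalization 3 in place of 8 were called higher. That count was also 4 without control replicate 3, without PGAM5 KD replicate 2, without PGAM5 KD replicate 3 or with no mean-variance trend, and 5 without control replicate 1, with no filter or with the replicate block. Pla2g4a, the cytosolic phospholipase A2, rose from 24.1 ± 0.774 to 38.3 ± 0.610 FPKM (log2 fold change 0.65, SE 0.04), and the actin regulator Coro1a rose from 173 ± 2.53 to 239 ± 12.9 FPKM (log2 fold change 0.46, SE 0.04). Asap1, an Arf GTPase-activating protein, and Wipf1, which binds the actin regulator WASP, fell with log2 fold changes of -0.51 (SE 0.08) and -0.41 (SE 0.05).

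Of the complement components 3 of 24 were tested, C3 among them, and 1 rose. That gene, Cfp, encodes properdin, which stabilizes the alternative-pathway convertase, and it went from 94.5 ± 3.86 to 131 ± 1.21 FPKM (SD, n = 3), with a log2 fold change of 0.47 (SE 0.04, limma adjusted p = 0.000195). Among the complement regulators 4 of 16 were tested, and Clu, encoding clusterin, rose from 2.63 ± 0.273 to 5.17 ± 0.247 FPKM (log2 fold change 0.76, SE 0.08, limma adjusted p = 0.000662). No regulator and no component was called lower. Of all genes tested 16.8% were called higher and 14.9% lower, and 3 and 4 genes are too few to compare with those shares.

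Among the other complement receptors and integrin partners 4 of 10 were tested. Itgb2, the beta chain that pairs with CD11b, was 55.5 ± 2.02 FPKM in control and 62.7 ± 3.45 FPKM in PGAM5 KD libraries (SD, n = 3), and rose with a log2 fold change of 0.17 (SE 0.05, limma adjusted p = 0.0392). That call was lost in 10 of 15 alternatives, among them scaling to TPM, where the log2 fold change was 0.09 (limma adjusted p = 0.214), the leaving out of any 1 control library, and the leaving out of PGAM5 KD replicate 1 or 2. Lrp1, an endocytic receptor that takes part in the uptake of C1q-coated cells, fell from 46.9 ± 1.10 to 36.9 ± 0.981 FPKM (log2 fold change -0.34, SE 0.04, limma adjusted p = 0.000798). Itgax, the alpha chain of complement receptor 4, was low at 0.268 to 0.493 FPKM in control and 0.114 to 0.298 FPKM in PGAM5 KD libraries and was not tested. C5ar2, the second C5 peptide receptor, was 0.0139 to 0.108 FPKM in control and 0.217 to 0.278 FPKM in PGAM5 KD libraries, on 1 to 19 fragments, and was below the filter. With no filter on low values it was called, with a log2 fold change of 0.22 (SE 0.05, limma adjusted p = 0.0374).

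**Figure D5:**
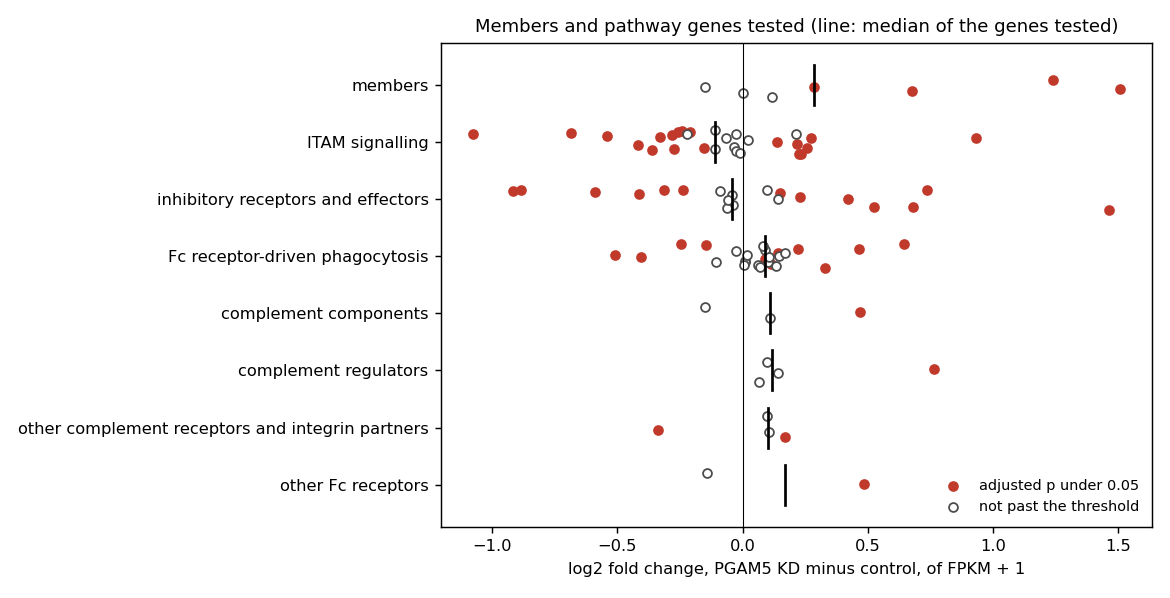
Each point is 1 gene tested, placed by its log2 fold change of FPKM + 1 (PGAM5 KD minus control) in the row of its list, filled for an adjusted p under 0.05, with a vertical bar at the list's median. The row named members holds the 7 receptor and complement genes tested here, with a median of 0.29, and the ITAM signalling and inhibitory rows have called genes on both sides of 0.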

How the data were processed

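RNA of 6 libraries (poly-A selected) had been sequenced, and the authors deposited FPKM for every Ensembl gene, 1 table per library. The submitters' processing notes name HISAT2 2.0.5, featureCounts 1.5.0-p3 and mm10. The annotation release, the strand setting and the treatment of fragments on overlapping genes are not given in the sources used here, and kits with and without strand are both described. Groups came from the labels. Symbols and exon lengths came from GENCODE M21 (GRCm38), which matched 54409 of 54532 identifiers. Multiplying FPKM by exon length gave whole steps (tolerance 0.01) for 96.8% to 97.1% of values below 1000 fragments, from which depth and fragments per gene were recovered. No pair of replicates agreed within counting noise.

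For testing, limma 3.58.1 (R 4.3.3) was fitted to log2(FPKM + 1) (lmFit, eBayes with trend, two-sided, Benjamini-Hochberg) over the 10540 genes with a mean of at least 1 FPKM, at an adjusted p under 0.05. Fold changes on that scale understate changes of low genes. Summaries, exact permutation tests and figures used Python 3.11.15, pandas 2.3.3, scipy 1.17.1 and matplotlib 3.10.9. The fit was tested on simulated data. Alternatives were a pseudocount of 0.1, no filter, a mean of at least 5 FPKM, TPM scaling, quantile normalization, median centring, no trend, limma's voom on recovered fragments, a replicate block and leaving out each library. The genes and the pathway lists were chosen with earlier results of these data known. Of each pathway list the called genes with the largest absolute log2 fold change were named, up to 4, and Itgb2, Itgax and C5ar2 whatever their values. Some genes that these rules would name are not reported here.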

Additional observations from a re-analysis of the deposited data

How the results depend on the processing

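Fcgr1, Fcgr4, Itgam and C3ar1 kept their direction and their call in every alternative in which they were tested, with log2 fold changes of 1.43 to 1.70, 1.05 to 1.75, 0.61 to 0.87 and 0.21 to 0.32. The highest adjusted p-values were 0.0452 for Fcgr4 with no filter and 0.0497 for C3ar1 with scaling to TPM (limma). With a minimum mean of 5 FPKM 2 of the 10 genes were called in place of 4, since Fcgr4 and Itgam were no longer tested, and with no filter 5 were called, Fcgr2b being added. The log2 difference of the summed activating over inhibitory ratio was 0.37, and 0.086 to 0.52 when 1 library was left out. With Fcgr3 alone over Fcgr2b it was -0.99, and -1.52 to -0.41 when 1 library was left out. Leaving out 1 library gave 4 of these genes called each time and 2342 to 2843 of all genes called, against 3346. Genes past both thresholds numbered 139, against 261 with a pseudocount of 0.1, 76 with a mean of at least 5 FPKM and 275 with voom. Scaling to TPM shifted the median log2 fold change of all genes by -0.07, with 1084 genes called higher in place of 1771, and higher calls made up 32.3% of calls in place of 52.9%. The labels link same-numbered libraries by nothing but the number, and their deviations had correlations of -0.020, 0.016 and -0.052. Whether they shared a culture or a day cannot be told from these values. With the replicate block 4 of these genes and 2652 of all genes were called. For Fcgr3, on 10 to 33 fragments, low depth and no change cannot be told apart. For Cfb low counts and fragments lost to the overlapping gene cannot be told apart.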
